A study of Mus musculus with 12 samples.

Results

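The comparison described here is the effect of doxorubicin on heart mRNA averaged over 2 genotypes. All 12 libraries of the series entered it: 6 from doxorubicin-treated mice and 6 from mice given normal saline (NS), with 3 mice in each of 4 groups, namely A17α-MHCKO and A17fl/fl mice each given saline (+ NS) or doxorubicin (+ DOX). A17fl/fl mice carry loxP-flanked Adam17 alleles and no Cre. A17α-MHCKO mice carry the same alleles together with a Cre driven by the α-MHC promoter, which acts in cardiomyocytes and leaves Adam17 intact in the other cells of the heart. Male mice on a C57BL/6J background, 8 weeks old at the start, received saline or doxorubicin intraperitoneally on days 0, 7, 14 and 21, at 5 mg/kg per injection and 20 mg/kg in total, and hearts were collected 4 weeks after the last injection. The labels call the tissue heart and the study names the left ventricle, and the data are bulk tissue RNA, and fewer cells of a type and less RNA per cell cannot be told apart in them.

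Doxorubicin is an anthracycline that inserts into DNA, traps topoisomerase II on broken strands and drives redox cycling with iron, and its clinical use is limited by injury to the heart. Cardiomyocytes depend on mitochondria, where the anthracycline accumulates near the inner membrane, so the transcripts of the respiratory chain, the sarcomere, iron and heme handling, the p53 response and the antioxidant response are the usual readouts in this tissue. After repeated low doses the injury develops slowly.

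Libraries held 15950717 to 21725076 fragment counts, of which mitochondrially encoded genes took 17.9% to 25.9%. Adam17 averaged 34.8 ± 0.579 CPM in A17α-MHCKO + NS and 32.3 ± 4.45 in A17α-MHCKO + DOX, against 54.4 ± 14.5 in the saline and 49.9 ± 2.88 in the doxorubicin A17fl/fl hearts (SD, n = 3 each; CPM, normalized counts scaled to a common library size), so that the knockout libraries were lower in both treatments. One library, A17fl/fl + NS replicate 1, stood apart: its mean correlation with the others was 0.900 against 0.948 to 0.966 for the remaining 11, and its neutrophil marker sum was 3177 CPM against 48.4 to 157 CPM in the other libraries. The heart's own defining markers, Myh6, Tnnt2 and Actc1, were detected in every library.

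No single gene passed the threshold for the average effect of doxorubicin at an adjusted p below 0.05 with edgeR's quasi-likelihood test, and the smallest adjusted p was 0.0579, for Irx5. At an unadjusted p below 0.05, called nominal in what follows, 1717 of 16101 tested genes differed (10.7%), 880 of them higher (5.47%) and 837 lower (5.2%). The statistics below give the log2 change with its standard error and the adjusted p, and whether a call was nominal. DESeq2 called 116 genes higher (0.72% of tested genes) and 60 lower (0.373%) at an adjusted p below 0.05, and limma-voom with library weights called 20 higher and 3 lower. Without A17fl/fl + NS replicate 1, edgeR called 3 genes higher and none lower at the adjusted threshold, and 2464 genes were nominal (15% of the genes tested without it), 1242 higher (7.57%) and 1222 lower (7.45%). Without A17fl/fl + NS replicate 2 instead, 59 genes were higher and 14 lower at the adjusted threshold. Under the fold, p and FPKM limits of the study, 32 genes were higher (0.275%) and 82 lower (0.704%). Of those 82 lower genes, 62 had their highest level in A17fl/fl + NS replicate 1, and without that library 35 were higher and 49 lower, with 44 genes shared between the 114 and the 84. Omitting A17fl/fl + NS replicate 2 or 3 instead gave 305 and 248 genes. Replicate libraries of a group differed by more than sampling noise. For 138 genes (0.857%) all 6 doxorubicin libraries exceeded all 6 saline libraries, and for 48 (0.298%) the opposite held.

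Developmental transcription factors of the Iroquois family stood first among the higher genes. These homeodomain proteins pattern the heart, where they set ventricular identity and the gradient of repolarizing current across the ventricular wall, and all 5 tested members, Irx1, Irx2, Irx3, Irx4 and Irx5, were nominally higher with no overlap between the treatments. Over all tested genes 5.47% were nominally higher and 0.857% were higher without overlap. Irx1, Irx2 and Irx3 were named after their values were seen. Irx4 and Irx5 were picked by the smallest p of this contrast, so the count of 5 is not separate support. Irx5, which represses the potassium channel of the early repolarization phase, ranged from 5.43 to 7.83 CPM in the 6 saline libraries (median 5.69) and from 10.3 to 15.7 CPM in the 6 doxorubicin libraries (median 12.2), with log2 change 1.03 ± 0.12 (SE), adjusted p = 0.0579. Irx4, a marker of ventricular identity, ranged from 18.9 to 33.6 CPM in the 6 saline libraries (median 25.8) and from 34.6 to 44.5 CPM in the 6 doxorubicin libraries (median 39.9) (log2 change 0.67 ± 0.11 (SE), adjusted p = 0.118). Every doxorubicin heart lay above every saline heart for both genes. Irx3, a regulator of rapid conduction in the ventricular conduction system, ranged from 20.5 to 36.02 CPM in the 6 saline libraries (median 27.4) and from 37.2 to 59.8 CPM in the 6 doxorubicin libraries (median 47.4) (log2 change 0.84 ± 0.17), and Irx1 and Irx2 had log2 changes of 0.88 and 0.95 (adjusted p = 0.154 and 0.169). DESeq2 called all 5, with adjusted p from 3.41e-10 for Irx5 to 0.00153 for Irx3. In separate genotypes the log2 change of Irx5 was 0.78 in A17fl/fl and 1.28 in A17α-MHCKO hearts and that of Irx4 was 0.89 in A17fl/fl and 0.45 in A17α-MHCKO hearts, and neither interaction was nominal.

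Other genes named by the rule were also separated between treatments. Fgf16, a growth factor secreted in the postnatal heart, ranged from 4.16 to 10.1 CPM in the 6 saline libraries (median 8.03) and from 15.9 to 21.2 CPM in the 6 doxorubicin libraries (median 18.05) (log2 change 1.28 ± 0.20 (SE), adjusted p = 0.118). Its 6 doxorubicin values all lay above its saline values, and its change was 1.38 in A17fl/fl and 1.19 in A17α-MHCKO hearts. Gpr22, an orphan G-protein coupled receptor enriched in myocardium, ranged from 11.2 to 24.6 CPM in the 6 saline libraries (median 20.6) and from 33.4 to 46.4 CPM in the 6 doxorubicin libraries (median 41.8) (log2 change 1.05 ± 0.18 (SE), adjusted p = 0.118). Mov10l1, a helicase known from germ-cell piRNA biogenesis, ranged from 28.1 to 43.02 CPM in the 6 saline libraries (median 33.7) and from 51.9 to 82.1 CPM in the 6 doxorubicin libraries (median 56.1) (log2 change 0.81 ± 0.13). Spsb4, a substrate receptor of ubiquitin ligases, ranged from 4.699 to 9.98 CPM in the 6 saline libraries (median 6.84) and from 11.5 to 17.2 CPM in the 6 doxorubicin libraries (median 12.6) (log2 change 0.96 ± 0.15). For each of these genes no doxorubicin library fell within the saline range. The remaining names, 6430571L13Rik and the antisense transcript Gm15543, had log2 changes of 0.93 and 0.75 (adjusted p = 0.118 and 0.118). Gm15543, Spsb4, Irx3, Ciart, Actc1, Alas1 and Myh7 overlap an annotated gene on the opposite strand. The libraries were stranded, but whether the counting used strand is not given in the sources used here. If it did not, reads of the paired genes cannot be told apart.

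**Figure D1:**
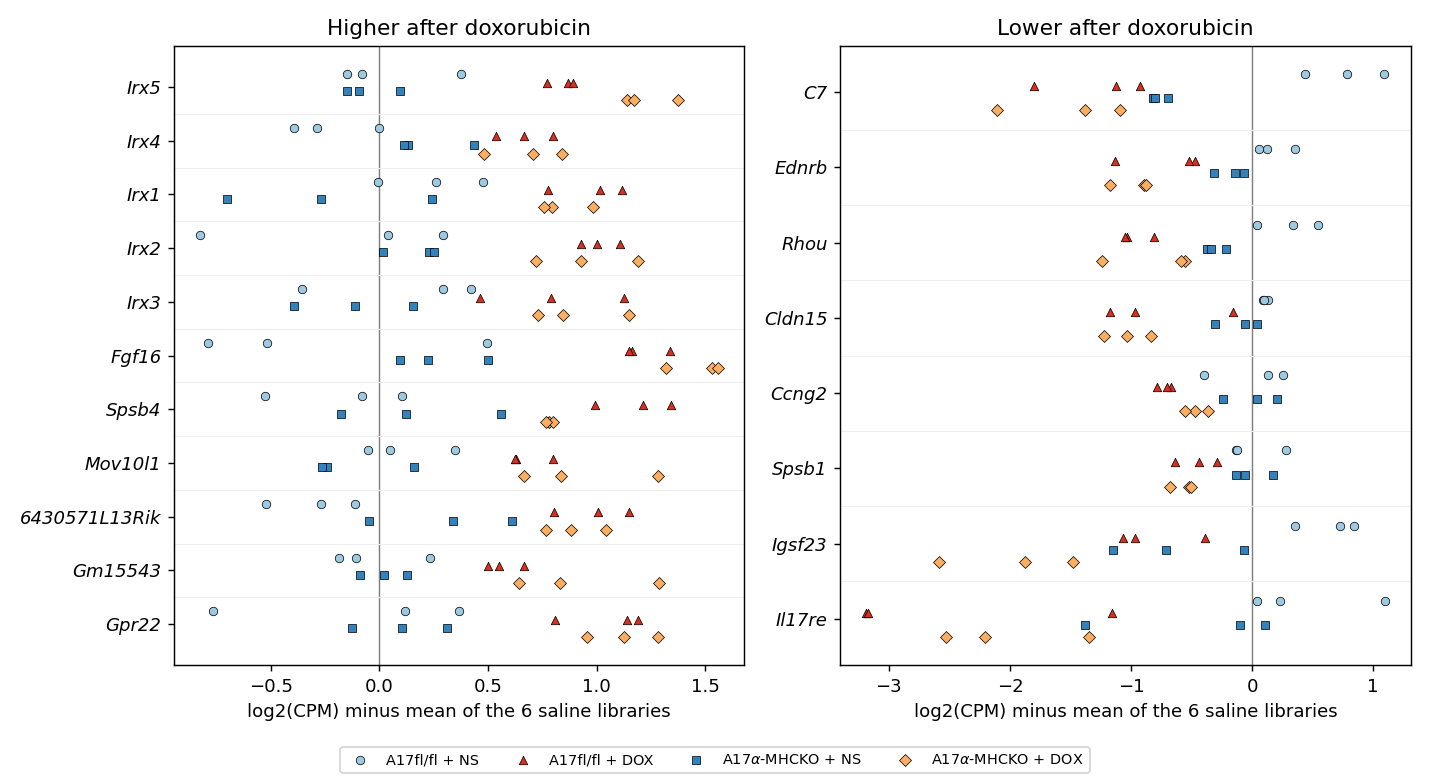
Level of each gene in each of the 12 libraries, as log2 CPM minus the mean of the 6 saline libraries, one row per gene and one marker per heart with the 4 groups by color and shape. In the left panel every doxorubicin marker lies above the 6 saline markers of its row, while in the right panel the rows of Igsf23, Cldn15, Ccng2 and Il17re overlap.

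The lower genes named by the rule began with C7, the complement component that initiates insertion of the membrane attack complex. C7 ranged from 11.1 to 41.4 CPM in the 6 saline libraries (median 19.2) and from 4.53 to 10.2 CPM in the 6 doxorubicin libraries (median 8.21) (log2 change -1.36 ± 0.20 (SE), adjusted p = 0.118), with no overlap. The change of C7 was -2.03 in A17fl/fl and -0.70 in A17α-MHCKO hearts (interaction nominal). Ednrb, the endothelin B receptor of endothelium and fibroblasts, ranged from 20.7 to 33.1 CPM in the 6 saline libraries (median 25.8) and from 11.5 to 18.7 CPM in the 6 doxorubicin libraries (median 14.04) (log2 change -0.83 ± 0.13 (SE), adjusted p = 0.118). Rhou, a small GTPase of cell adhesion, ranged from 12.5 to 23.7 CPM in the 6 saline libraries (median 15.4) and from 6.89 to 11.1 CPM in the 6 doxorubicin libraries (median 8.59) (log2 change -0.87 ± 0.14). C7, Ednrb and Rhou were lower in all doxorubicin hearts than in any saline heart. Spsb1, a paralog of Spsb4 and an adaptor for degradation of the inducible nitric oxide synthase, showed the same separation, ranging from 44.7 to 59.5 CPM in the 6 saline libraries (median 45.95) and from 30.7 to 40.2 CPM in the 6 doxorubicin libraries (median 34.3) (log2 change -0.51 ± 0.11). The claudin gene Cldn15 and the cyclin gene Ccng2, a FOXO target linked to growth arrest, had log2 changes of -0.86 and -0.61 (adjusted p = 0.176 and 0.176), each with some overlap. Igsf23 and the interleukin-17 receptor subunit gene Il17re were at low levels, with highest values of 11.5 and 2.39 CPM, and log2 changes of -1.38 and -2.13. DESeq2 called each of the 16 genes of this rule, with the largest adjusted p at 0.00607. Of the 16, 12 did not overlap, beside 0.857% of all tested genes higher and 0.298% lower without overlap. The 16 were picked by the smallest p of this contrast in the same 12 libraries, so neither count is separate support.

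Nuclear genes of the respiratory chain had many higher calls. They encode the subunits of complexes I to IV, cytochrome c and ATP synthase that are imported into mitochondria. Of 78 tested genes, 36 were nominally higher (46.2%, beside 5.47% of all tested genes) and none was lower, all 78 had a positive log2 change (beside 45.6% of all tested genes), and the median was 0.27 beside -0.026 over all genes. Per genotype the medians were 0.28 in A17fl/fl and 0.28 in A17α-MHCKO hearts. Complex I gave 22 of 37 genes nominally higher (median 0.29), ATP synthase 7 of 14 (median 0.35), complex III with cytochrome c 3 of 10 (median 0.23), complex IV 3 of 13 (median 0.23) and complex II 1 of 4 (median 0.25). The ATP synthase subunit gene Atp5h ranged from 209 to 361 CPM in the 6 saline libraries (median 280.0) and from 325 to 513 CPM in the 6 doxorubicin libraries (median 376) (log2 change 0.48 ± 0.12 (SE), adjusted p = 0.261). Ndufa8, an accessory subunit of complex I, ranged from 199 to 240.3 CPM in the 6 saline libraries (median 224) and from 264 to 399 CPM in the 6 doxorubicin libraries (median 302) (log2 change 0.47 ± 0.11 (SE), adjusted p = 0.261). Sdhd, the membrane anchor of complex II, ranged from 297 to 366 CPM in the 6 saline libraries (median 334) and from 379 to 610.0 CPM in the 6 doxorubicin libraries (median 422) (log2 change 0.44 ± 0.11 (SE), adjusted p = 0.300). Ndufa8 and Sdhd did not overlap, while 1 or more doxorubicin libraries fell in the saline range for Atp5h. Among further members, Ndufs6 had a log2 change of 0.54 (adjusted p = 0.301), Cyc1 0.31 and the muscle isoform Cox6a2 0.47, the latter mostly in A17α-MHCKO hearts (0.051 in A17fl/fl and 0.89 in A17α-MHCKO hearts).

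The mean level of the respiratory chain list overlapped between treatments. It ran from 7.77 to 8.23 log2(CPM + 1) in saline and from 8.16 to 8.71 in doxorubicin libraries. The highest saline value was that of A17α-MHCKO + NS replicate 1. Libraries at both ends of the list mean were left out in turn. A17α-MHCKO + DOX replicate 1 had the highest mean of the list, 8.71 log2(CPM + 1) against 8.16 to 8.29 for the other 5 doxorubicin libraries, and A17fl/fl + NS replicate 1 had the lowest of all, 7.77. Without the first, 24 genes were nominally higher and 75 of 78 were positive with a median of 0.19. Without the second, 31 were higher and all 78 were positive (beside 49.3% of all genes) with a median of 0.24. Without A17fl/fl + NS replicate 3, 76 of 78 were positive. Over the 12 libraries left out in turn the nominally higher genes numbered 24 (A17α-MHCKO + DOX replicate 1 omitted, 4.1% of all genes) to 52 (A17α-MHCKO + DOX replicate 3 omitted, 5.9%). The 13 mitochondrially encoded mRNAs of the same complexes held no nominal call (2 lower without A17fl/fl + NS replicate 1), with a median of -0.024.

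**Figure D2:**
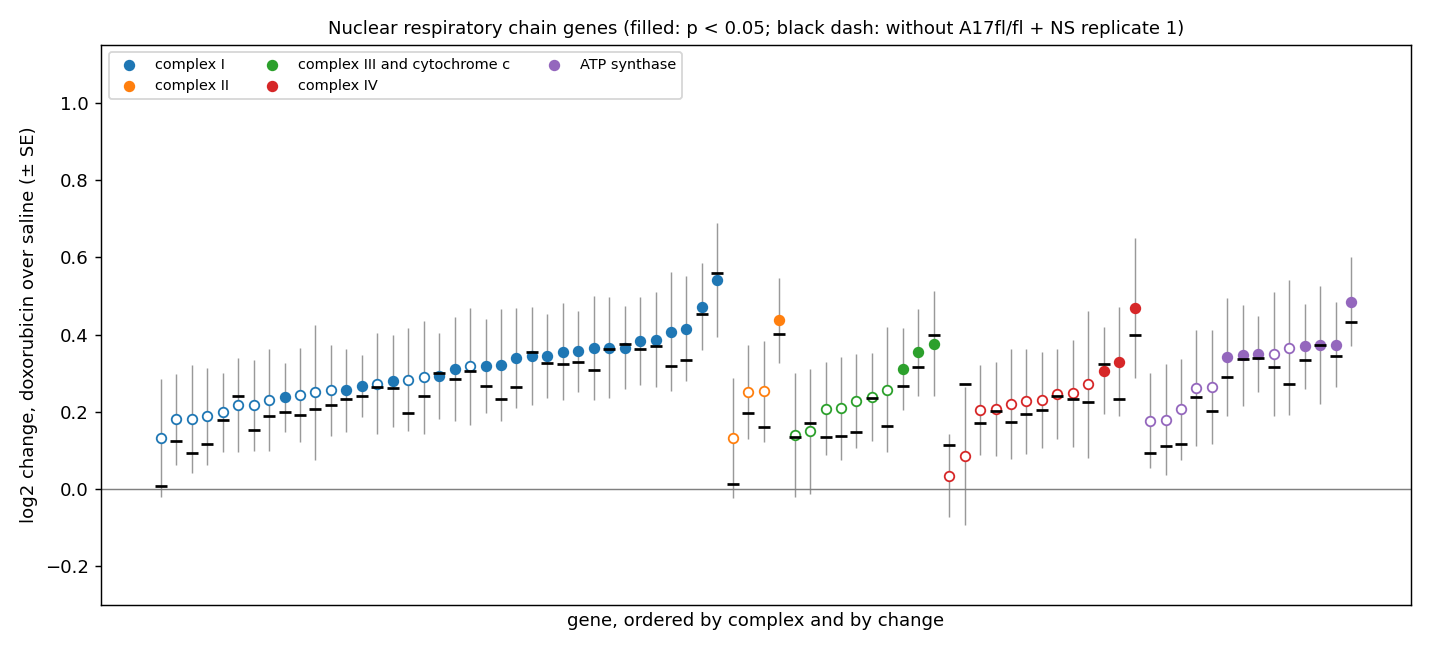
Change of each nuclear respiratory chain gene after doxorubicin on the log2 scale, with its standard error, grouped by complex (color), filled where the unadjusted p is below 0.05 and with a black dash at the value without A17fl/fl + NS replicate 1. All 78 circles lie above zero, from 0.0352 to 0.54, and the filled ones are most frequent in complex I.

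Promoters of these genes are shown because so many members shared a direction. RefSeq windows from 250 bases before to 50 after the start, on GRCm38.p6, were found for 65 of its genes. The core of the NRF1 recognition site, searched on both strands as GCATGCGC, occurred in 11 of the 65 windows (16.9%) against 3.05% of all 27025 genes with a window. These 11 were Ndufa6, Ndufa8, Ndufa11, Sdhb, Uqcrc1, Uqcr11, Cycs, Cox6a1, Atp5g2, Atp5k and Atp5l. Of them 6 were nominally higher, beside 36 of 78 tested genes of the whole list (46.2%). A link between the motif and the change was not tested. The YY1 motif AAGATGGCG was present in 7 of the 65 windows against 1.64% of all, the estrogen-related receptor motif TCAAGGTCA in 2 against 0.466%, and the ETS motif CCGGAAGT in 5 against 4.31%. A match is a description of letters and not a bound site. The 4 genes printed below, Ndufa8, Cycs, Ndufa11 and Atp5l, were all nominally higher. Among the other genes with the NRF1 core, Ndufa6, Sdhb, Uqcrc1, Cox6a1 and Atp5g2 were not. The parts before the start are printed for 4 of the genes with the NRF1 core, with the motif in capitals, for Ndufa8 (chr2:36049339-36049588, minus strand), Cycs (chr6:50566570-50566819, minus strand), Ndufa11 (chr17:56717512-56717761, plus strand) and Atp5l (chr9:44920743-44920992, minus strand).
Ndufa8: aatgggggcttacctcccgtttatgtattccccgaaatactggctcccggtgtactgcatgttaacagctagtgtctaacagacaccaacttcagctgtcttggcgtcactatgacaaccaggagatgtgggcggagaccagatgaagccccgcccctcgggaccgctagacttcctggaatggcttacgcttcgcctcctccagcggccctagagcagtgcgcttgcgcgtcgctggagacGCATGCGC
Cycs: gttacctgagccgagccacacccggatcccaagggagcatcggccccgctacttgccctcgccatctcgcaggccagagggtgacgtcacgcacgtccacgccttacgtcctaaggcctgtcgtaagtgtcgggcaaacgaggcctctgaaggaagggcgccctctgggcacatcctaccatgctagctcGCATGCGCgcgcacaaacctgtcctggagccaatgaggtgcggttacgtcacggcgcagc
Ndufa11: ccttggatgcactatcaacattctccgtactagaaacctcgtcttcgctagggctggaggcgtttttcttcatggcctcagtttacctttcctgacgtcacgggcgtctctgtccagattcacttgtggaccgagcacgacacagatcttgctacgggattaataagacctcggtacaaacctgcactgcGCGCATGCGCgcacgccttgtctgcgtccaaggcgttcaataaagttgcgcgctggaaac
Atp5l: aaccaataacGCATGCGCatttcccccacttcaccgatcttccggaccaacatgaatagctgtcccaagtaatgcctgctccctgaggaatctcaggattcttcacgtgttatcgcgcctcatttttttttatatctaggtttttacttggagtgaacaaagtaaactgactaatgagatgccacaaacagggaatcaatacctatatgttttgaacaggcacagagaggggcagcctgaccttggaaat

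Sarcomere transcripts also had higher calls. The list of thick and thin filament, Z-disc and chaperone genes held 14 nominally higher genes of 34 (41.2%, beside 5.47% of all tested genes) and none lower, 29 positive changes, with a median of 0.31. Actc1, the cardiac α-actin gene, ranged from 3234 to 7896 CPM in the 6 saline libraries (median 4385) and from 8335 to 11113 CPM in the 6 doxorubicin libraries (median 9927) (log2 change 1.01 ± 0.21 (SE), adjusted p = 0.207). Tnnc1, the troponin C gene, ranged from 839 to 1355 CPM in the 6 saline libraries (median 1227) and from 1418 to 2153 CPM in the 6 doxorubicin libraries (median 1725) (log2 change 0.56 ± 0.12 (SE), adjusted p = 0.207). Every doxorubicin heart exceeded every saline heart in both. The change of Tnnc1 was 0.27 in A17fl/fl and 0.84 in A17α-MHCKO hearts (interaction nominal). Myh7, the slow β-myosin heavy chain of the fetal program, ranged from 249 to 896 CPM in the 6 saline libraries (median 402) and from 537 to 3173 CPM in the 6 doxorubicin libraries (median 1235) (log2 change 1.55 ± 0.39 (SE), adjusted p = 0.295), with 0.77 in A17fl/fl and 2.33 in A17α-MHCKO hearts (interaction not nominal), and 1 or more libraries overlapped. Myh6, the adult fast isoform, had a log2 change of 0.26 (adjusted p = 0.719). Tcap, the titin cap of the Z-disc, gave 0.88, and Smyd1, a muscle methyltransferase, gave 0.63, with no overlap for Smyd1. Without A17fl/fl + NS replicate 1 the list held 14 higher and 1 lower with a median of 0.22. Single omissions gave higher calls from 10 (A17fl/fl + DOX replicate 2 omitted, 4.07% of all genes) to 17 (A17fl/fl + NS replicate 3 omitted, 6.43%).

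Of the natriuretic peptide and cardiac stress genes, 9 of 29 were nominally higher (31%, beside 5.47% of all tested genes) and none lower (median 0.12). Its lower calls ran from 0 (A17fl/fl + DOX replicate 1 omitted, 4.1% of all genes) to 5 (A17fl/fl + NS replicate 3 omitted, 7.74%). Fhl2, a LIM-domain scaffold of the Z-disc, had log2 change 0.65 ± 0.17. The natriuretic peptide genes themselves were not among the calls. Nppa ranged from 331 to 6024 CPM in the 6 saline libraries (median 3397) and from 1153 to 3579.8 CPM in the 6 doxorubicin libraries (median 1609), with a wide overlap. Nppb ranged from 87.7 to 787 CPM in the 6 saline libraries (median 141) and from 237 to 374 CPM in the 6 doxorubicin libraries (median 261). Without A17fl/fl + NS replicate 1, which had 787 CPM of Nppb, the log2 change of Nppb was 0.90 (nominal). Calcium-handling and channel genes held 3 higher and 1 lower of 40 (7.5% and 2.5%, beside 5.47% and 5.2% of all genes). These counts depended on single libraries. The higher calls ran from 2 (A17fl/fl + DOX replicate 3 omitted, 4.13% of all genes) to 15 (A17fl/fl + NS replicate 2 omitted, 7.96%). The lower calls ran from 1 (A17fl/fl + NS replicate 2 omitted, 8.46% of all genes) to 9 (A17fl/fl + NS replicate 1 omitted, 7.45%). The sodium-calcium exchanger Slc8a1 and the inward rectifier Kcnj2 were higher by 0.54 and 0.35 on the log2 scale, and Scn4b, an accessory sodium channel subunit, had a change of -2.53 in A17fl/fl and 0.072 in A17α-MHCKO hearts (interaction nominal). Scn4b was 127 CPM in A17fl/fl + NS replicate 3 and 14.4 and 36.3 in the other A17fl/fl saline hearts. Without replicate 3 its average change went from -1.23 to -0.62 (nominal). The summed level of the 12 cardiomyocyte markers ranged from 26613 to 50699 CPM in saline and from 52521 to 60864 CPM in doxorubicin libraries, with no overlap. Actc1 stands in the marker, sarcomere and cardiac stress lists, so these lists are not separate. The summed respiratory chain level did overlap, from 25491 to 37193 CPM in saline and from 34870 to 48671 CPM in doxorubicin libraries. The part of the marker sum in the sarcomere and respiratory chain lists was not tested.

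Genes of energy supply had nominal calls in both directions. Among glucose genes 7 of 35 were nominally higher (20%) and 3 lower (8.57%), beside 5.47% and 5.2% of all genes. Higher glucose calls ran from 6 (A17fl/fl + DOX replicate 2 omitted, 4.07% of all genes) to 10 (A17fl/fl + NS replicate 1 omitted, 7.57%). Slc16a1, the monocarboxylate transporter for lactate and pyruvate, ranged from 175 to 227 CPM in the 6 saline libraries (median 187) and from 248 to 294 CPM in the 6 doxorubicin libraries (median 266) (log2 change 0.48 ± 0.086 (SE), adjusted p = 0.137), with no overlap. Hk1, hexokinase 1, ranged from 96.2 to 174 CPM in the 6 saline libraries (median 114) and from 152 to 236 CPM in the 6 doxorubicin libraries (median 194) (log2 change 0.61 ± 0.18). Pgam2, the muscle phosphoglycerate mutase, was higher by 0.45 (adjusted p = 0.326), while Mpc1, the mitochondrial pyruvate carrier, had log2 change 0.81 ± 0.28 with its highest doxorubicin value at 129.6 CPM. Fatty acid and ketone genes held 1 higher and 4 lower of 48 (2.08% and 8.33%, beside 5.47% and 5.2% of all genes). With single libraries left out the higher calls ran from 1 (A17fl/fl + NS replicate 1 omitted, 7.57% of all genes) to 15 (A17fl/fl + NS replicate 3 omitted, 6.43%). Lower calls ran from 0 (A17α-MHCKO + NS replicate 1 omitted, 4% of all genes) to 5 (A17fl/fl + NS replicate 2 omitted, 8.46%). Pdk4, the kinase that closes pyruvate dehydrogenase in fasting, ranged from 95.9 to 2264 CPM in the 6 saline libraries (median 444) and from 114 to 313 CPM in the 6 doxorubicin libraries (median 180.3) (log2 change -1.72 ± 0.65), and its highest value, in A17fl/fl + NS replicate 3, was followed by 834 CPM in A17α-MHCKO + NS replicate 1. The change of Pdk4 was -1.98 (nominal) without A17fl/fl + NS replicate 1, but -1.08 and -1.003 (neither nominal) without these 2 libraries. Angptl4, an inhibitor of lipoprotein lipase, had log2 change -1.38 ± 0.56, but -0.73 (not nominal) without A17fl/fl + NS replicate 1 and -0.91 (not nominal) without A17α-MHCKO + NS replicate 1. Ppargc1b, a coactivator of mitochondrial genes, was higher by 0.51 (adjusted p = 0.390), with 1.03 in A17fl/fl and -0.0096 in A17α-MHCKO hearts (interaction nominal).

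Alas1, the rate-limiting enzyme of heme synthesis, ranged from 44.9 to 132 CPM in the 6 saline libraries (median 92.5) and from 163 to 208 CPM in the 6 doxorubicin libraries (median 196) (log2 change 1.04 ± 0.21 (SE), adjusted p = 0.169), with no overlap. The change of Alas1 was 1.23 in A17fl/fl and 0.85 in A17α-MHCKO hearts. Of 36 iron and ferroptosis genes 3 were nominally higher (8.33%) and 6 lower (16.7%, beside 5.2% of all genes). Lower iron calls ran from 5 (A17fl/fl + NS replicate 1 omitted, 7.45% of all genes) to 10 (A17fl/fl + NS replicate 2 omitted, 8.46%). Bach1, a heme-regulated repressor, was lower (log2 change -0.36 ± 0.099), as was Slc40a1, the iron exporter ferroportin (log2 change -0.76 ± 0.22). Antioxidant and NADPH oxidase genes were 2 higher and 10 lower of 50 (4% and 20%, beside 5.47% and 5.2% of all genes). Without A17fl/fl + NS replicate 1 the list held 3 and 11. Omitting single libraries gave lower calls from 6 (A17α-MHCKO + NS replicate 3 omitted, 3.45% of all genes) to 18 (A17fl/fl + NS replicate 2 omitted, 8.46%). Gpx3, the secreted glutathione peroxidase, ranged from 165 to 626 CPM in the 6 saline libraries (median 413) and from 126 to 223 CPM in the 6 doxorubicin libraries (median 164) (log2 change -1.25 ± 0.29 (SE), adjusted p = 0.240). Nox4, a hydrogen peroxide producing oxidase, ranged from 2.57 to 7.18 CPM in the 6 saline libraries (median 4.84) and from 2.28 to 3.34 CPM in the 6 doxorubicin libraries (median 2.38) (log2 change -0.94 ± 0.26). Gclc and Gclm, the subunits of the rate-limiting enzyme of glutathione synthesis, had log2 changes of -0.31 and -0.78 (adjusted p = 0.360 and 0.372).

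Genes of the DNA damage program differed in their calls by list. DNA repair and anthracycline-handling genes held none of 31, and p53 targets held 3 higher and 6 lower of 39 (7.69% and 15.4%, beside 5.47% and 5.2% of all genes). Leaving out single libraries gave higher p53 targets from 1 (A17fl/fl + DOX replicate 2 omitted, 4.07% of all genes) to 6 (A17fl/fl + NS replicate 1 omitted, 7.57%). Lower p53 targets ran from 4 (A17fl/fl + DOX replicate 2 omitted, 3.41% of all genes) to 10 (A17fl/fl + NS replicate 2 omitted, 8.46%). Cdkn1a, the p21 cell cycle inhibitor, was lower, ranging from 37.5 to 276 CPM in the 6 saline libraries (median 104) and from 41.02 to 66.3 CPM in the 6 doxorubicin libraries (median 50.8) (log2 change -1.31 ± 0.46), and the change was -0.77 (nominal) without A17fl/fl + NS replicate 1, which had 276 CPM. Trp53inp1, Fas and Mdm2 were lower (-0.70, -0.64 and -0.27 on the log2 scale), and Perp, a p53 target of cell adhesion, was higher (0.38, adjusted p = 0.301). Cell death genes held 2 higher and 3 lower of 43 (4.65% and 6.98%), near the 5.47% and 5.2% of all genes. They held 5 and 4 without A17fl/fl + NS replicate 1, beside 7.57% and 7.45% of all genes. Bnip3, a mitochondrial mitophagy receptor of that list, had a log2 change of -0.86 (adjusted p = 0.401). Cell cycle genes held 2 lower, Anln and Rrm2, of 50 (4%, below the 5.2% of all genes). They held no call without A17fl/fl + NS replicate 1 (7.45% of all genes lower) and 9 lower without A17fl/fl + NS replicate 3 (7.74%). Autophagy genes held 2 and 3 of 46, near the share of all genes. Lower autophagy calls ran from 0 (A17α-MHCKO + NS replicate 3 omitted, 3.45% of all genes) to 10 (A17fl/fl + NS replicate 1 omitted, 7.45%).

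Chaperone and stress-response genes had mostly lower calls. The list of unfolded protein, heat shock and integrated stress genes held 1 nominally higher and 12 lower of 54 (median -0.11). The lower share was 22.2%, beside 5.2% of all genes. Without A17fl/fl + NS replicate 1 the list held 2 and 11. Omitting single libraries gave lower calls from 7 (A17fl/fl + DOX replicate 2 omitted, 3.41% of all genes) to 14 (A17fl/fl + NS replicate 3 omitted, 7.74%). Hspa1b, an inducible HSP70, ranged from 6.98 to 36.4 CPM in the 6 saline libraries (median 14.8) and from 5.66 to 9.57 CPM in the 6 doxorubicin libraries (median 8.34) (log2 change -0.88 ± 0.22 (SE), adjusted p = 0.295), with -1.63 in A17fl/fl and -0.13 in A17α-MHCKO hearts (interaction nominal). Its near-identical copy Hspa1a, whose reads the counting may split with it, had log2 change -0.78 ± 0.25. Dnajb1, its cochaperone, had log2 change -0.39 ± 0.11, and Chac1, a glutathione-degrading enzyme of the integrated stress response, had log2 change -0.90 ± 0.27. For Hspa1b, Hspa1a, Dnajb1 and Chac1 the decrease was larger in A17fl/fl hearts, and the interaction was nominal for each. Hsp90aa1, the inducible HSP90, was lower by 0.46 as well. Immediate-early genes held 9 lower and none higher of 40 (22.5% lower, beside 5.2% of all genes, median -0.40). After omission of single libraries its lower calls ran from 2 (A17fl/fl + DOX replicate 3 omitted, 3.36% of all genes) to 15 (A17fl/fl + NS replicate 3 omitted, 7.74%). Gadd45g, a growth arrest gene, did not overlap, ranging from 13.9 to 49.8 CPM in the 6 saline libraries (median 18.2) and from 8.68 to 12.99 CPM in the 6 doxorubicin libraries (median 10.7) (log2 change -1.01 ± 0.27), and its change was -0.65 (nominal) without A17fl/fl + NS replicate 1, its highest library. Fosl2, an AP-1 subunit, had log2 change -0.98 ± 0.27, and -0.57 (nominal) without A17fl/fl + NS replicate 1, which had 197 CPM against 59.95 at most in the other saline libraries. With that library omitted the immediate-early list held 5 higher and 5 lower.

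Clock genes had calls in both directions. The methods of the study give no hour of collection, and its part in these changes was not tested. The core loop pairs the activators encoded by Arntl, Clock and Npas2 with the repressors of the Per, Cry and Bhlhe41 group, and the D-box factors Dbp and Nfil3 follow it. Of 27 genes 4 were nominally higher and 4 lower (14.8% each way, beside 5.47% and 5.2% of all genes). Single omissions gave higher calls from 2 (A17fl/fl + DOX replicate 3 omitted, 4.13% of all genes) to 7 (A17fl/fl + NS replicate 3 omitted, 6.43%). Lower clock calls ran from 2 (A17fl/fl + DOX replicate 3 omitted, 3.36% of all genes) to 6 (A17fl/fl + NS replicate 1 omitted, 7.45%). Arntl ranged from 4.37 to 25.2 CPM in the 6 saline libraries (median 14.4) and from 2.11 to 7.63 CPM in the 6 doxorubicin libraries (median 4.59) (log2 change -1.62 ± 0.41 (SE), adjusted p = 0.301). Ciart, a repressor of the same complex, ranged from 1.104 to 7.72 CPM in the 6 saline libraries (median 2.15) and from 5.66 to 7.58 CPM in the 6 doxorubicin libraries (median 6.297) (log2 change 1.38 ± 0.27 (SE), adjusted p = 0.154), with 0.53 in A17fl/fl and 2.23 in A17α-MHCKO hearts (interaction nominal). Bhlhe41 and Cry2 were higher (0.83 and 0.44), Dbp was higher by 1.55 with saline values from 6.75 to 107 CPM (by 2.43 without A17α-MHCKO + NS replicate 2), and Npas2, Clock and Nfil3 were lower (-0.69, -0.46 and -1.32), the change of Nfil3 being -0.60 (nominal) without A17fl/fl + NS replicate 1. The changes of Npas2, Ciart and Per2 had a nominal interaction. The E-box letters CACGTG stand 3 times in the upstream promoter of Ciart (chr3:95882229-95882478, minus strand), printed with them in capitals, and the same letters were in the windows of 5 of 21 clock genes (Per1, Cry1, Tef, Ciart and Bhlhe41) against 8.09% of all genes.
Ciart: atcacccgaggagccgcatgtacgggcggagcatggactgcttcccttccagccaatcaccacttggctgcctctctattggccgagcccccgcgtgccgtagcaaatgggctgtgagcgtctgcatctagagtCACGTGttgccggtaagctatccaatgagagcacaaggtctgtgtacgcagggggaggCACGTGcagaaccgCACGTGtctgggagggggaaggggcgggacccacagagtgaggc

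**Figure D3:**
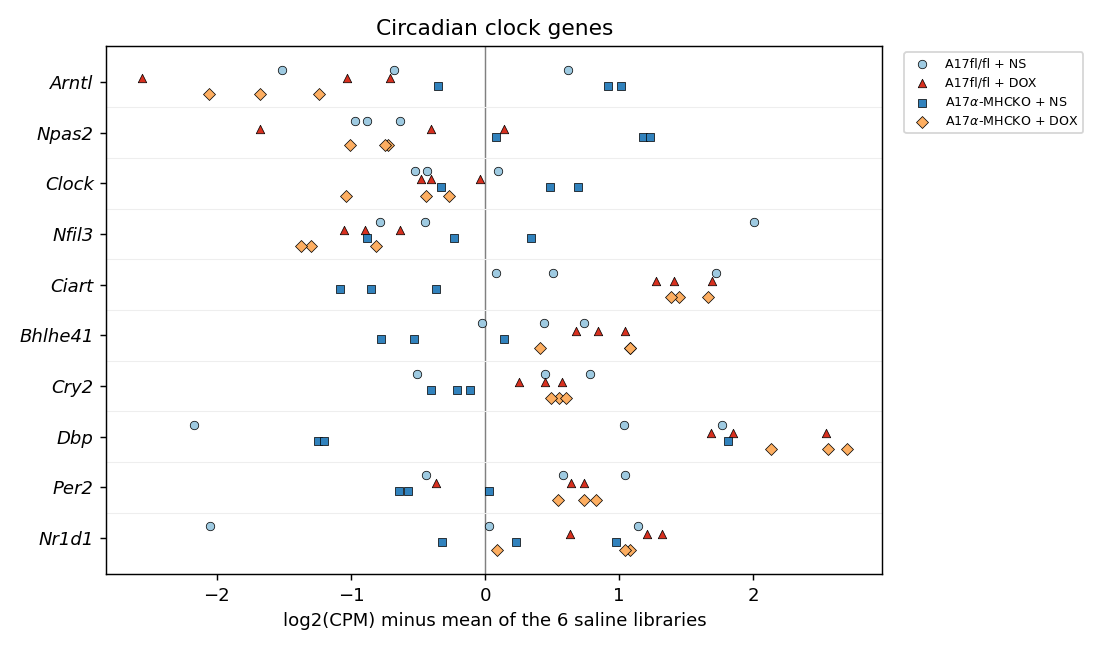
Level of 10 circadian genes in each library, as log2 CPM minus the mean of the 6 saline libraries, with one marker per heart and the 4 groups by color and shape. The A17α-MHCKO + NS hearts lie left of zero for Ciart and Cry2, and the doxorubicin hearts of both genotypes lie right of zero for both.

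Glucocorticoid and fasting genes held 9 lower and none higher of 32 (28.1% lower, beside 5.2% of all genes, median -0.39). The lower calls were 13 without A17fl/fl + NS replicate 1. After omission of single libraries its lower calls ran from 4 (A17α-MHCKO + DOX replicate 2 omitted, 3.95% of all genes) to 13 (A17fl/fl + NS replicate 1 omitted, 7.45%). Errfi1, a feedback inhibitor of EGF receptor signaling, had log2 change -0.85 ± 0.23, and with Gadd45g and Cdkn1a it had the smallest p values of the list. Among atrophy genes 1 was higher and 4 lower of 25 (4% and 16%, beside 5.47% and 5.2% of all genes). Lower atrophy calls ran from 0 (A17fl/fl + DOX replicate 2 omitted, 3.41% of all genes) to 9 (A17fl/fl + NS replicate 1 omitted, 7.45%). Trim55, a sarcomeric ubiquitin ligase, was higher and did not overlap (log2 change 0.42 ± 0.15) and Deptor, an inhibitor of mTOR, was lower (log2 change -0.45 ± 0.18). Angiogenesis genes gave 1 and 2 of 35, near or below the share of all genes. Lower angiogenesis calls ran from 1 (A17fl/fl + DOX replicate 2 omitted, 3.41% of all genes) to 8 (A17fl/fl + NS replicate 2 omitted, 8.46%). Vegfb, the growth factor of fatty acid uptake in endothelium, had log2 change 0.37 ± 0.14. Ribosomal protein genes had a median of 0.13, and of 0.28 without A17fl/fl + NS replicate 1, a list whose level was 6.76 log2(CPM + 1) in A17α-MHCKO + DOX replicate 1 against 6.04 to 6.26 in the other doxorubicin libraries.

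Counts of calls among matrix genes depended on which libraries entered. Collagen and matrix genes held 10 lower and none higher of 50 (20% lower, beside 5.2% of all genes, median -0.38). Without A17fl/fl + NS replicate 1 the list held 2 higher and 5 lower. After omission of single libraries its lower calls ran from 2 (A17α-MHCKO + NS replicate 2 omitted, 4.62% of all genes) to 24 (A17fl/fl + NS replicate 3 omitted, 7.74%). Lox, the collagen cross-linking enzyme, was 608 CPM in A17fl/fl + NS replicate 1 and 20.5 CPM at most in the other saline libraries, so that its log2 change of -2.21 became -0.17 (not nominal). Col1a1 and Col3a1, the major fibrillar collagens, became -0.19 (not nominal) and -0.36 (not nominal). Eln, tropoelastin, was lower (log2 change -0.82 ± 0.21), and the change was 0.39 in A17fl/fl and -2.03 in A17α-MHCKO hearts (interaction nominal). Adam19, a shedding metalloproteinase, ranged from 25.5 to 91.2 CPM in the 6 saline libraries (median 49.8) and from 19.8 to 34.4 CPM in the 6 doxorubicin libraries (median 25.4) (log2 change -1.03 ± 0.25 (SE), adjusted p = 0.285) and had a change of -0.67 (nominal) without that library. Matrix proteases held 8 lower of 36 (22.2%, beside 5.2% of all genes) and 4 without it (beside 7.45% of all genes). Omitting single libraries gave lower calls from 4 (A17fl/fl + NS replicate 1 omitted, 7.45% of all genes) to 19 (A17fl/fl + NS replicate 3 omitted, 7.74%). In the TGF-β and BMP list Bmp7, a BMP ligand opposing fibrosis, was higher with no overlap, ranging from 0.635 to 1.64 CPM in the 6 saline libraries (median 1.18) and from 1.700 to 3.32 CPM in the 6 doxorubicin libraries (median 2.23).

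The TNF and NF-κB list, which holds the axis that the study followed, gave 3 higher and 11 lower of 67. These were 4.48% and 16.4%, beside 5.47% and 5.2% of all genes. Without A17fl/fl + NS replicate 1 the list gave 4 and 2. Omitting single libraries gave lower calls from 2 (A17fl/fl + NS replicate 1 omitted, 7.45% of all genes) to 27 (A17fl/fl + NS replicate 2 omitted, 8.46%). Cebpb, a transcription factor of that axis, ranged from 84.5 to 427 CPM in the 6 saline libraries (median 131) and from 59.8 to 100.1 CPM in the 6 doxorubicin libraries (median 72.7) (log2 change -1.15 ± 0.26 (SE), adjusted p = 0.223), with -1.94 in A17fl/fl and -0.35 in A17α-MHCKO hearts (interaction nominal), and -0.83 (nominal) without A17fl/fl + NS replicate 1. Traf3, a TNF receptor adapter, had log2 change 0.53 ± 0.20, with 1.07 in A17fl/fl and -0.019 in A17α-MHCKO hearts (interaction nominal). Tab1, the activator of TAK1, had log2 change 0.48 ± 0.13. Adam17 itself had a log2 change of -0.12 (adjusted p = 0.748), which was 0.0002 (not nominal) without the library. Il1b was 428 CPM in that library and at most 2.15 CPM in the other saline ones. Complement genes held 1 higher and 5 lower of 29 (3.45% and 17.2%, beside 5.47% and 5.2% of all genes). Lower complement calls ran from 2 (A17α-MHCKO + NS replicate 3 omitted, 3.45% of all genes) to 10 (A17fl/fl + NS replicate 2 omitted, 8.46%). C7 had a log2 change of -1.37 (nominal) without the library. Interferon genes held 1 and 1 of 57, below the share of all genes. The median change of the interferon list was 0.45 in A17fl/fl hearts (41 positive) and -0.32 in A17α-MHCKO hearts (5 positive). That difference was not tested for the list. Higher interferon calls ran from 0 (A17fl/fl + NS replicate 2 omitted, 7.96% of all genes) to 6 (A17fl/fl + NS replicate 1 omitted, 7.57%).

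Marker lists of other heart cells are short, so that a share rests on few genes. Macrophage markers held 2 higher, Cx3cr1 and Ccr2, and 2 lower, Csf1r and Mertk, of 16 (12.5% each way, beside 5.47% and 5.2% of all genes). Lower macrophage calls ran from 2 (A17fl/fl + NS replicate 1 omitted, 7.45% of all genes) to 5 (A17fl/fl + NS replicate 2 omitted, 8.46%). Cx3cr1, the fractalkine receptor, ranged from 1.97 to 10.02 CPM in the 6 saline libraries (median 3.76) and from 6.602 to 11.2 CPM in the 6 doxorubicin libraries (median 9.05) (log2 change 0.94 ± 0.25), with 1.73 in A17fl/fl and 0.14 in A17α-MHCKO hearts (interaction nominal). Ccr2, the receptor of recruited monocytes, ranged from 2.47 to 10.97 CPM in the 6 saline libraries (median 4.79) and from 7.21 to 16.6 CPM in the 6 doxorubicin libraries (median 11.9) (log2 change 0.96 ± 0.38). T and NK cell markers held 3 higher and 1 lower of 17 (17.6% and 5.88%, beside 5.47% and 5.2% of all genes). Higher calls of that list ran from 2 (A17fl/fl + DOX replicate 2 omitted, 4.07% of all genes) to 6 (A17fl/fl + NS replicate 3 omitted, 6.43%). Gzma, a granzyme of cytotoxic cells, had 0 to 1.77 CPM in saline and 0.975 to 2.299 CPM in doxorubicin libraries, with 4.13 in A17fl/fl and -0.14 in A17α-MHCKO hearts (interaction nominal). Neutrophil markers held 2 lower, Mmp9 and Hdc, of 11 (18.2%, beside 5.2% of all genes). Lower neutrophil calls ran from 0 (A17fl/fl + NS replicate 1 omitted, 7.45% of all genes) to 9 (A17fl/fl + NS replicate 2 omitted, 8.46%). Fibroblast markers held 3 lower of 12 (25%, beside 5.2% of all genes), and 1 without A17fl/fl + NS replicate 1 (beside 7.45%). Mesothelium markers held 2 lower of 11 (18.2%, beside 5.2% of all genes) with a median of -1.74. Their lower calls ran from 0 (A17α-MHCKO + NS replicate 2 omitted, 4.62% of all genes) to 7 (A17fl/fl + NS replicate 1 omitted, 7.45%). Their summed level was 28.4 to 349 CPM in saline and 20.4 to 63.00 CPM in doxorubicin libraries. Atrium markers summed to 418 to 8879 CPM in saline and 1909 to 5076 CPM in doxorubicin libraries, although the study names the left ventricle as the source. Endothelial, pericyte, B cell, red cell, platelet and adipocyte lists held at most 1 nominal call in each direction. Leaving out single libraries raised this to 8 higher adipocyte markers (A17fl/fl + NS replicate 2 omitted, 7.96% of all genes). Without A17fl/fl + NS replicate 1 there were 5 higher red cell markers of 8 (7.57% of all genes) and 3 lower pericyte markers of 12 (7.45%).

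**Figure D4:**
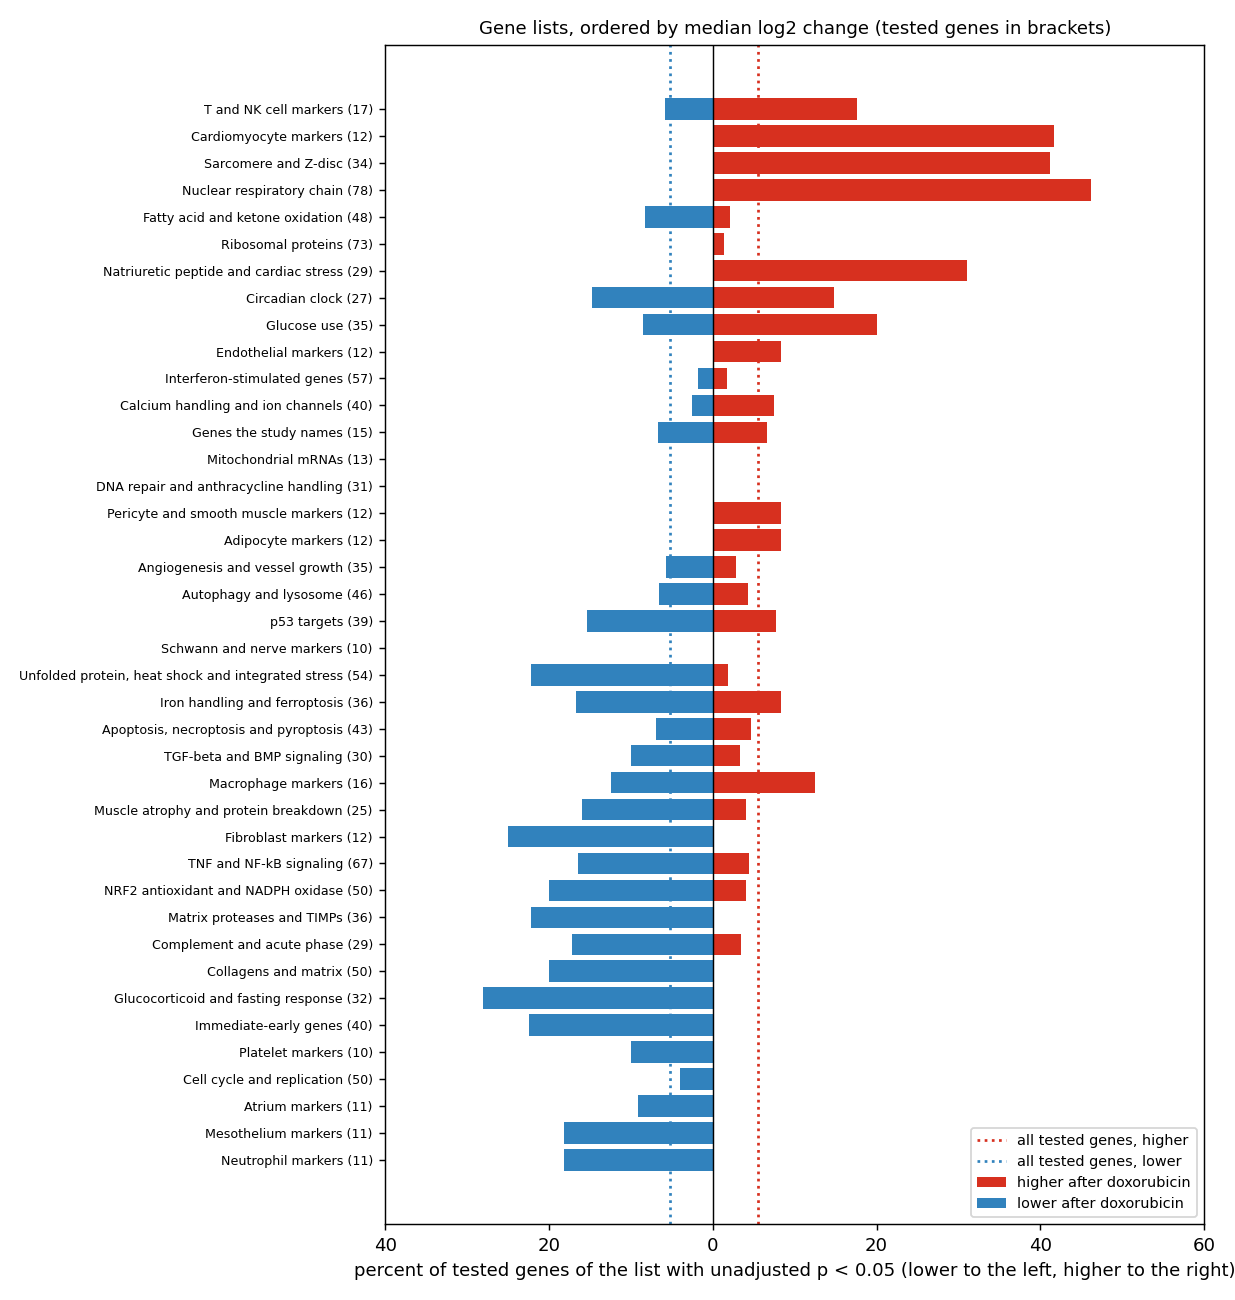
Share of the tested genes of each list with an unadjusted p below 0.05, higher to the right and lower to the left, for the lists with 10 or more tested genes, ordered by median log2 change; dotted lines mark the 5.47% and 5.2% of all tested genes. The respiratory chain, sarcomere, cardiac stress and cardiomyocyte lists have bars to the right only, and the glucocorticoid and immediate-early lists to the left only. Other lists are one-sided as well, among them collagens, matrix proteases and fibroblast markers to the left and endothelial and pericyte markers to the right.

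Some of these genes had a nominal difference in response between genotypes. No gene passed the interaction at an adjusted p below 0.05 with edgeR, 965 genes (5.99%) had an interaction p below 0.05, and DESeq2 called 21. Among the 16 genes of the rule, Spsb4, 6430571L13Rik, C7 and Rhou had an interaction p below 0.05, each larger in A17fl/fl hearts, where the rule itself required the same sign in both. Of the respiratory chain genes all 78 were positive on average, with 77 positive in A17fl/fl and 76 in A17α-MHCKO hearts. Opposite signs between genotypes were seen, among others, for Eln, Gzma, Mmp9 and Scn4b. The A17fl/fl value of Mmp9 rests on A17fl/fl + NS replicate 1, at 179 CPM against 6.52 CPM at most in the other saline libraries. For Scn4b, A17fl/fl + NS replicate 3 was highest at 127 CPM. The other A17fl/fl saline values, 14.4 and 36.3 CPM, also exceeded the A17fl/fl doxorubicin values of 8.37 to 12.7 CPM. The saline libraries of the 2 genotypes are separate mice.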

How the data were processed

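Heart RNA of 12 mice was sequenced by the authors as stranded paired-end mRNA libraries; per the labels, reads were processed with CASAVA 1.8, HISAT2, SAMtools 1.3.1 and edgeR against GRCm39. The deposited file holds raw fragment counts of 53465 genes, which the authors made with StringTie, and FPKM values that the authors normalized for length and depth. The annotation, and whether counting used strand, are not given in the sources used here.

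Counts were fitted with edgeR 4.0.16 (quasi-likelihood test, TMM normalization, filterByExpr, 16101 genes) in R 4.3.3, with 1 coefficient per group. The contrast averaged the doxorubicin effect over both genotypes, the interaction was its difference, and Benjamini-Hochberg adjustment ran over all tested genes. FPKM entered only the study limits (absolute log2 change above 1, p below 0.05, mean FPKM above 1 in either treatment). CPM are TMM-normalized. Alternatives used DESeq2 1.42.0, limma 3.58.1 and the settings described at the end. The fits were tested on simulated counts. Counts of the 12 libraries limit the precision; each value is 1 mouse.

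Named genes were, in each direction, those with adjusted p below 0.05, mean CPM above 1 and the same sign in both genotypes, filled to 8 by smallest p below 0.05, then up to 3 members of each list with the smallest p below 0.05, the genes the study names and the defining markers. Genes and the 44 lists were chosen with earlier results of these data known. List members were matched by symbol or identifier (8 entries unmatched); no coordinates of genes were taken, since the reference is GRCm38.p6. One result of the ribosomal protein list is not reported here. Same-numbered libraries of different groups share only a number, not an animal.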

Additional observations from a re-analysis of the deposited data

Results flagged for a closer look

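The mean log2(CPM + 1) of each of the 44 lists was examined for a library far from the other 5 of its treatment (Dixon's test over 6 libraries, 88 tests, in which chance flags about 1 in 20). It flagged 19 levels.

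Among saline libraries A17fl/fl + NS replicate 1 was the outlying one in 13. Its level was higher than the next library for p53 targets (4.63 against 4.18), cell cycle (3.501 against 2.41), matrix proteases (5.901 against 4.38), TNF and NF-κB (5.41 against 4.18), complement (5.93), cell death (4.66), immediate-early (5.73), neutrophil (6.94 against 2.35), red cell (7.17), glucose (7.397), iron (5.62) and study-named (5.62) genes, and lower for B cell markers (0.670 against 1.63).

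A17α-MHCKO + DOX replicate 1 was the outlying doxorubicin library for the respiratory chain (8.71 against 8.29), ribosomal proteins (6.76) and glucocorticoid genes (6.16) on the high side, and for collagens (4.93) and fibroblast markers (6.71) on the low side. A17α-MHCKO + DOX replicate 3 was high for B cell markers (2.24).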

How the results depend on the processing

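Genes called at an adjusted p below 0.05 numbered 0 with edgeR, 0 with another normalization, other filters, robust estimation, the additive model and the replicate block, 176 with DESeq2, 81 with the likelihood ratio test and 23 with voom weights. Leaving out each library in turn gave 0 to 73, the highest without A17fl/fl + NS replicate 2, and DESeq2 without A17fl/fl + NS replicate 1, chosen after seeing the data, gave 369. Genes within the study limits numbered 114, and 174, 56, 70, 192 and 0 with the likelihood ratio test, voom weights, the replicate block, CPM above 1 and adjusted p; leaving out a library gave 84 to 305. Their split was 32 higher and 82 lower, 34 and 22 with voom weights, and 37 and 33 with the replicate block. The interaction held 0 genes, 21 with DESeq2, 11 with the likelihood ratio test, 0 to 81 when a library was left out and 42 with DESeq2 without A17fl/fl + NS replicate 1. Correlations of same-numbered libraries ran from -0.10 to 0.22, and of differently numbered ones from -0.26 to 0.32, so the number is not a pairing. The sign turned for Adam17 with voom weights (0.011) and without A17fl/fl + NS replicate 1 (0.00020), for Spp1 in the same settings (0.031 and 0.21), and for Nppa (0.27) and Nppb (-0.0069) without A17fl/fl + NS replicate 2; over the 12 libraries left out in turn these genes ranged from -0.18 to 0.00020, -3.39 to 0.21, -0.74 to 0.27 and -0.0069 to 0.90. The causes were not tested. For genes near the lowest levels, such as Il17re and Gzma, few counts lie behind each value.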

Other observations

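Groups looked at only after the values were seen gave descriptions of the same kind. Of 82 mitochondrial ribosomal protein genes (Mrpl and Mrps), 36 were nominally higher (43.9%, beside 5.47% of all tested genes) and none lower, with a median log2 change of 0.25, and 33 without A17fl/fl + NS replicate 1 (beside 7.57% of all genes). Single omissions gave from 24 (A17α-MHCKO + DOX replicate 1 omitted, 4.1% of all genes) to 50 (A17α-MHCKO + DOX replicate 3 omitted, 5.9%). Of 24 genes of the mitochondrial import machinery (Timm and Tomm) 5 were higher and none lower (median 0.22), and from 2 (A17fl/fl + DOX replicate 2 omitted, 4.07% of all genes) to 10 (A17α-MHCKO + NS replicate 2 omitted, 5.29%) with single libraries omitted. Proteasome subunit genes held 2 higher of 44 and none lower (median 0.037), and from 1 (A17fl/fl + NS replicate 2 omitted, 7.96% of all genes) to 8 (A17fl/fl + NS replicate 1 omitted, 7.57%) higher with single libraries omitted.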
